A study of Mus musculus with 8 samples.

Results

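The genes described here are 40 that serve cell division, 23 whose products license, start, carry out or trigger DNA replication and 17 whose products drive mitosis. They were taken by gene symbol from a table of 55487 genes, and all 40 were found in it. The table held RNA levels of colon intestinal epithelial cells, the cell layer that lines the large bowel, in 8 libraries of C57BL/6J mice. The groups were 4 wild type (WT) libraries and 4 libraries of mice labelled PIM1+/-, a heterozygous genotype of Pim1, which encodes a serine/threonine kinase. No treatment was named for either group, and the structure of the altered allele, the age and sex of the mice, the method of cell isolation and any pooling are among the details not given in the sources read. Whether each library is a different mouse is not labelled, and a p-value here therefore reflects only variation among libraries, which may be technical. The question read from the labels and the list itself was whether replication and mitosis genes differed between genotypes, and whether they differed alike.

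Dividing cells of the colon lie in the lower part of the crypts, where stem cells and their transit-amplifying daughters replace the lining continuously. Before DNA synthesis, Cdc6 and Cdt1 load the ring of Mcm2 to Mcm7 onto replication origins, and Cdc45 and the GINS complex then join the ring to form the active helicase. Genes of this phase are known targets of E2F transcription factors, whereas many mitosis genes are known targets of complexes that bind the cell cycle homology region (CHR) and of the CCAAT-binding factor NF-Y.

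The promoter sequences of the members are shown first, because replication and mitosis members held the short motifs searched in different shares. RefSeq promoter windows on GRCm38.p6, each 300 bases long with 250 bases before and 50 after the gene's start, were matched for 32 of the 40 members, 18 of replication and 14 of mitosis. Gins1, Gins2, Mcm4, Ccnd1, Ccne2, Ccna2, Aurkb and Tpx2 were not matched. Both strands were searched for E2F-type octamers (TTTCGCGC, TTTGGCGC, TTTCCCGC and TTTGCCGC), for the CHR hexamer TTTGAA and for CCAAT, and matches that share bases were kept. In the sequences below, written 5′ to 3′ on the gene's strand, capitals mark these matches, and GCGCCAAA, GCGCGAAA and GCGGGAAA are E2F-type octamers, TTCAAA the CHR hexamer and ATTGG the CCAAT box on the other strand. Mcm6 (chr1:128359706-128359825, minus strand) and Mcm5 (chr8:75109349-75109508, plus strand) are shown up to the base before the start, and Mcm3 (chr1:20820266-20820295, minus strand) over bases 18 to 47 after it, as helicase subunits with more than 1 E2F-type octamer in the window.
Mcm6: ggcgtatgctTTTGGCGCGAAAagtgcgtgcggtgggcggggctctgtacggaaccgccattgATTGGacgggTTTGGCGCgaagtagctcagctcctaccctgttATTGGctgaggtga
Mcm5: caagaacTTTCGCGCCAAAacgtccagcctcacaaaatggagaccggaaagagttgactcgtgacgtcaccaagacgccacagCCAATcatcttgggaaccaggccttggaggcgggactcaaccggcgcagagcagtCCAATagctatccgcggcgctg
Mcm3: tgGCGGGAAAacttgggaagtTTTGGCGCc
In Mcm5 the octamers TTTCGCGC and TTTGGCGC share bases within TTTCGCGCCAAA, and in Mcm6 within TTTGGCGCGAAA.

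Rrm2 (chr12:24708194-24708253, plus strand) and Pcna (chr2:132253181-132253280, minus strand) are shown as members higher in PIM1+/- libraries whose windows held a CCAAT box and no E2F-type octamer of the letters searched.
Rrm2: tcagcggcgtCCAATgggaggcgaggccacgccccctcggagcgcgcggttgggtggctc
Pcna: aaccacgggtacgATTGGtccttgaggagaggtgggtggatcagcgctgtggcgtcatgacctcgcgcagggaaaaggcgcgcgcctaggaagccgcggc
Cdk1 (chr10:69352913-69353047, minus strand), Top2a (chr11:99024190-99024374, minus strand), Mki67 (chr7:135716469-135716569, minus strand), Cdc20 (chr4:118437344-118437403, minus strand) and Ccnb2 (chr9:70421555-70421644, minus strand) are shown for the mitosis members, in which CCAAT boxes and the CHR hexamer stood close together. The CHR matches of Ccnb2 lie outside the stretch shown.
Cdk1: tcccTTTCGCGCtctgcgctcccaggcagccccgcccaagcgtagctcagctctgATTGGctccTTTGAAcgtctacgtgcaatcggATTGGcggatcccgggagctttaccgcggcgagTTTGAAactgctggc
Top2a: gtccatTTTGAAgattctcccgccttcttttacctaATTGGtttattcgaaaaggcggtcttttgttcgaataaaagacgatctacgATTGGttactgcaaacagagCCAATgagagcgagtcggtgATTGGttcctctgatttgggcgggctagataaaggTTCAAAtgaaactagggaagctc
Mki67: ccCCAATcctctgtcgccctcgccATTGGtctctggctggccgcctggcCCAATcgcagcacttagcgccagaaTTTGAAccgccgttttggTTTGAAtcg
Cdc20: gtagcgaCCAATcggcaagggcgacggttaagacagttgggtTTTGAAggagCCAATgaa
Ccnb2: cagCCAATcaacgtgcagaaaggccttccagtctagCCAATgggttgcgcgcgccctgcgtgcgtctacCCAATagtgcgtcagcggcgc

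An E2F-type octamer was present in the windows of 8 of 18 replication members (44.4%) and of 1 of 14 mitosis members (7.14%), Cdk1, against 2.32% of all 27025 promoter windows and 4.24% of the 9559 windows of genes tested below. The CHR hexamer was present in 2 of 18 replication members (11.1%) and 9 of 14 mitosis members (64.3%), against 18.1% of all windows and 12.4% of those of tested genes. CCAAT boxes were more even, at 12 of 18 replication members (66.7%) and 12 of 14 mitosis members (85.7%), against 37.9% of all windows and 39.4% of those of tested genes. Both the CHR hexamer and a CCAAT box occurred in the windows of 9 mitosis members (64.3%), Aurka, Ccnb2, Cdc20, Cdk1, Cenpf, Kif11, Mki67, Plk1 and Top2a. Both occurred in 7.12% of all windows and 5.41% of those of tested genes. Among the replication members, the octamer did not separate those higher in PIM1+/- libraries from the others, as described below. A match describes the letters in the window and does not show binding.

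The levels are TPM, the authors' transcript abundance scaled for gene length and to a fixed sum per library. Depth cannot be read from TPM and is unknown here. Genotypes were compared with limma on log2(TPM + 1) over 12760 genes, those that reached 1 TPM in 4 or more libraries. Adjusted p denotes the two-sided limma p with Benjamini-Hochberg adjustment over these 12760 genes, a gene was called at an adjusted p under 0.05, and a log2 fold change is PIM1+/- minus WT on that scale, which understates the change of low genes. All 40 members passed the filter. Of all tested genes, 1139 (8.93%) were called higher and 1090 (8.54%) lower in PIM1+/- libraries. That split was 51.1% higher among the calls, and it was 37.8% with upper quartile scaling and 35.4% after rescaling without mitochondrial transcripts, which took 16.1% to 18.4% of TPM in WT and 12.5% to 13.7% in PIM1+/- libraries. Pim1 itself was at 8.79, 7.86, 5.72 and 8.83 TPM in WT and 7.97, 7.23, 5.64 and 5.84 TPM in PIM1+/- libraries, in the order of replicates 1 to 4 here and below, and the groups overlapped. Its log2 fold change was -0.19 ± 0.15 (SE, n = 4 per genotype; limma adjusted p = 0.411), so the RNA of the targeted gene did not separate the labels.

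Replication members were higher in PIM1+/- libraries for 8 of 23 (34.8%), Mcm2, Mcm3, Mcm7, Cdt1, Gins1, Cdc45, Pcna and Rrm2, against 8.93% of all tested genes, and none was called lower. The members were chosen with earlier results of these data known, so the shares set beside each other here are descriptions and not a test. A positive log2 fold change was found for 22 of 23, against 48.0% of all tested genes, and their median was 0.33 (-0.02 to 0.75) against -0.01 for all tested genes. Of the mitosis members 0 of 17 were called by limma in either direction, against 17.5% of all tested genes. Of these members 0 of 17 had an unadjusted limma p under 0.05, and this too depended on single libraries. Without WT replicate 3 the count was 8, and without PIM1+/- replicate 2 it was 5, with 15 of 17 log2 fold changes positive in each fit. Without any other single library it was 0 or 1. Counts at an unadjusted p are given here and below without the share of all tested genes, so they cannot be read as many or few. In the main fit the log2 fold changes of the mitosis members were positive for 13 and negative for 4, with a median of 0.22 (-0.26 to 0.32). Whether replication members differed more than mitosis members was not tested, and the medians of both were above that of all genes. All 4 PIM1+/- libraries lay above all 4 WT libraries for 8 of 23 replication members (34.8%) and for 0 of 17 mitosis members, against 11.9% of all tested genes.

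**Figure D1:**
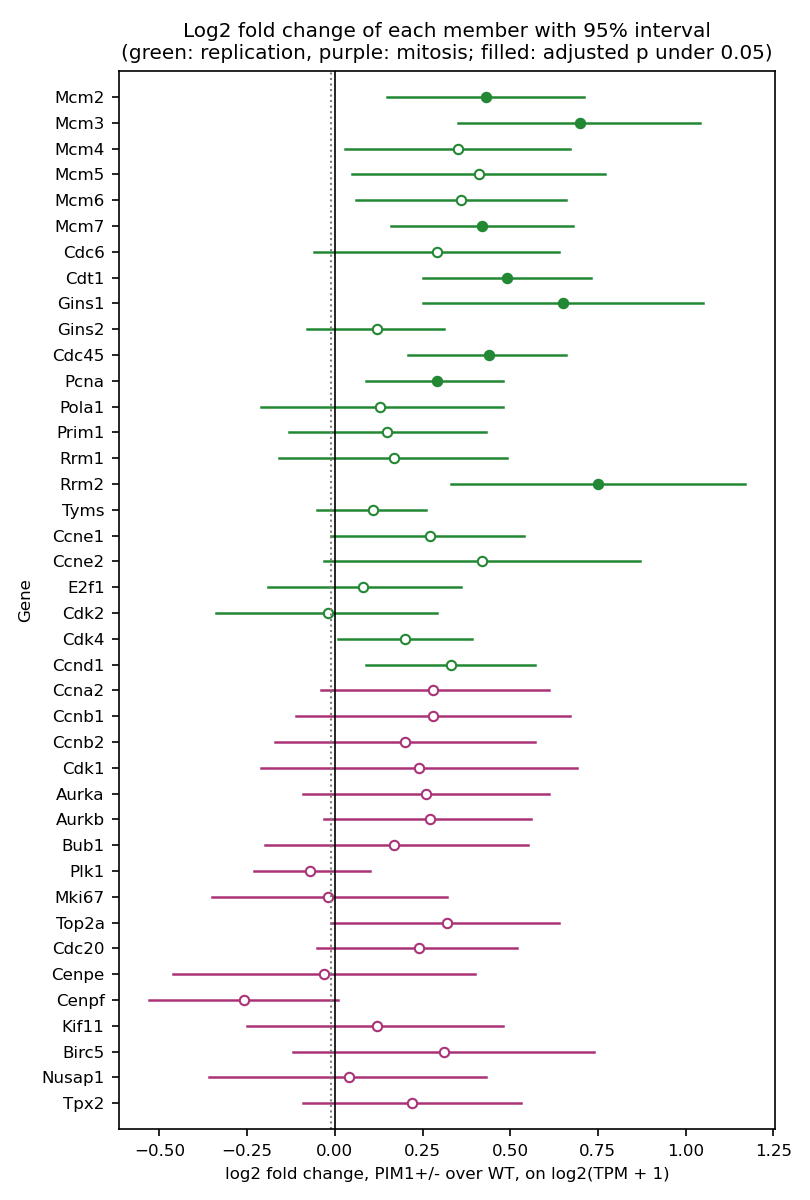
Log2 fold change of each member (x axis, PIM1+/- over WT on log2(TPM + 1)) with its 95% interval, replication members in green and mitosis members in purple, filled where the adjusted p was under 0.05; the dotted line is the median of all tested genes. The 8 filled points are all replication members, and Rrm2 at 0.75 and Mcm3 at 0.70 lie farthest to the right.

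The replication calls depended on single libraries. Their number was 2 without WT replicate 1 or without WT replicate 4, 4 without PIM1+/- replicate 1 or replicate 3, 5 without PIM1+/- replicate 4, and 6 without any other single library. Mcm3 and Cdt1 were called in each of these 8 fits. Calls over all tested genes fell as well, from 1139 higher to 772 without WT replicate 1 and 746 without WT replicate 4. Without any other single library they numbered 829 to 1004. The log2 fold changes of the 8 called members stayed positive in these fits, from 0.23 (Pcna) to 0.86 (Rrm2).

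The loading and activation of the helicase held most of the calls, with 6 of 11 members higher and all 11 log2 fold changes positive (median 0.42, 0.12 to 0.70). The Mcm subunits form the hexameric ring that unwinds DNA. Mcm3 (ENSMUSG00000041859) was at 16.3, 19.4, 17.7 and 12.3 TPM in the WT libraries and at 34.1, 24.1, 23.5 and 27.1 TPM in the PIM1+/- libraries. The highest WT library lay below the lowest PIM1+/- library, and PIM1+/- replicate 1 stood above the rest. Mcm3 rose from 16.4 ± 3.04 to 27.2 ± 4.87 TPM (mean ± SD, n = 4), a log2 fold change of 0.70 ± 0.15 (SE; limma adjusted p = 0.0148).

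Mcm2 was at 11.3, 13.8, 13.2 and 9.27 TPM in WT and at 18.9, 15.7, 15.8 and 14.8 TPM in PIM1+/- libraries. The groups did not overlap, by a margin of less than 1 TPM. Mcm2 rose by 0.43 ± 0.13 on the log2 scale (SE, n = 4 per genotype; limma adjusted p = 0.0440), and this call was lost in 7 of the 8 fits that left out a library (adjusted p up to 0.103). Mcm7 was at 25.6, 25.6, 33.6 and 23.4 TPM in WT and at 41.4, 35.7, 35.4 and 32.3 TPM in PIM1+/- libraries. WT replicate 3 lay above PIM1+/- replicate 4, so the groups overlapped. Mcm7 rose by 0.42 ± 0.12 on the log2 scale (limma adjusted p = 0.0371), a call lost in 6 of the 8 fits (adjusted p up to 0.0925).

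The other subunits of the ring missed the threshold with similar folds. Mcm6 was at 21.8, 23.8, 25.5 and 18.5 TPM in WT and at 37.1, 26.2, 27.5 and 25.7 TPM in PIM1+/- libraries. These did not overlap, but replicates 2 to 4 of PIM1+/- lay close to WT replicate 3, and the log2 fold change was 0.36 ± 0.13 (limma adjusted p = 0.0954). Mcm5 was at 16.2, 17.7, 21.5 and 13.0 TPM in WT and at 28.5, 18.9, 23.03 and 21.3 TPM in PIM1+/- libraries, and Mcm4 at 9.62, 10.1, 11.3 and 7.92 TPM against 16.5, 10.8, 12.6 and 11.1 TPM. Both overlapped through WT replicate 3, and both were highest in PIM1+/- replicate 1. Their log2 fold changes were 0.41 ± 0.16 for Mcm5 (limma adjusted p = 0.107) and 0.35 ± 0.14 for Mcm4 (limma adjusted p = 0.127). Of the 6 subunits, which act in equal numbers in the ring, 3 were called, and all 6 log2 fold changes lay between 0.35 and 0.70.

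**Figure D2:**
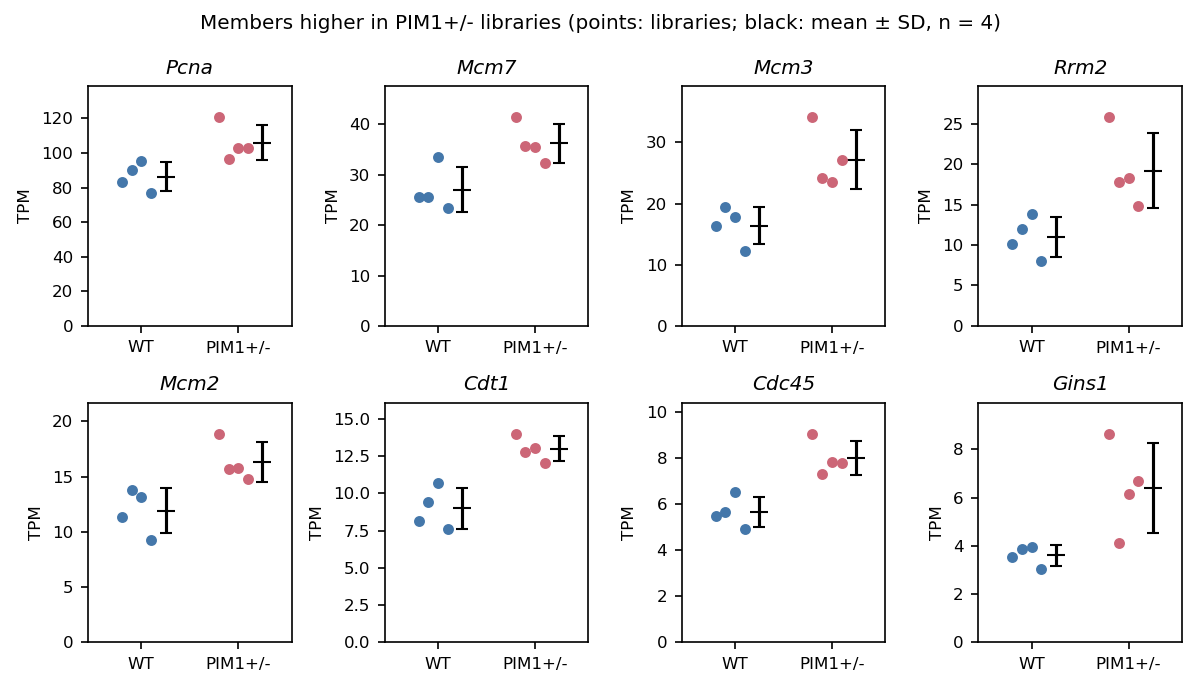
TPM of the 8 members higher in PIM1+/- libraries, each point a library and the black mark the mean ± SD (n = 4), on axes that start at 0. Every panel has all PIM1+/- points above all WT points except that of Mcm7, where WT replicate 3 at 33.6 TPM lies above PIM1+/- replicate 4 at 32.3 TPM.

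Cdt1, which loads the Mcm ring onto origins together with Cdc6, was at 8.18, 9.45, 10.7 and 7.61 TPM in WT and at 14.0, 12.8, 13.0 and 12.0 TPM in PIM1+/- libraries. The PIM1+/- libraries were close together and all above the highest WT library. Cdt1 rose from 8.99 ± 1.39 to 13.0 ± 0.822 TPM (mean ± SD, n = 4), a log2 fold change of 0.49 ± 0.11 (limma adjusted p = 0.0140), which was the smallest adjusted p among the 40 members. Its partner Cdc6, an ATPase, had lower levels, at 2.15 to 2.37 TPM in WT and 2.0 to 3.92 TPM in PIM1+/- libraries. Cdc6 overlapped through PIM1+/- replicate 2, the lowest of the 8 libraries, and had a log2 fold change of 0.29 ± 0.16 (limma adjusted p = 0.234).

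Cdc45, the cofactor that travels with the helicase at the fork, was at 5.50, 5.68, 6.56 and 4.94 TPM in WT and at 9.07, 7.32, 7.84 and 7.80 TPM in PIM1+/- libraries. These groups were separate, with the highest level in PIM1+/- replicate 1. Cdc45 rose by 0.44 ± 0.10 on the log2 scale (limma adjusted p = 0.0190), and the call was lost without WT replicate 1 (adjusted p = 0.0540) or WT replicate 4 (adjusted p = 0.0531). Exons of Cdc45 overlap those of Ufd1, and exons of Mcm7 those of Ap4m1 and Cops6, on the opposite strand, and with no strand setting given their reads may be shared. Gins1, a GINS subunit, was at 3.56, 3.87, 3.97 and 3.03 TPM in WT and at 8.65, 4.14, 6.14 and 6.68 TPM in PIM1+/- libraries. The groups did not overlap, and PIM1+/- replicate 2 lay just above the WT libraries. Gins1 rose by 0.65 ± 0.18 on the log2 scale (limma adjusted p = 0.0346), lost in 7 of the 8 fits without a library (adjusted p up to 0.0890). Gins2, another GINS subunit, was at 14.9 to 17.7 TPM in WT and 16.6 to 20.7 TPM in PIM1+/- libraries, with a log2 fold change of 0.12 ± 0.09 (limma adjusted p = 0.391).

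DNA synthesis at the fork had 1 call among 3 members. Pcna, the sliding clamp that holds the polymerases on DNA, was the most abundant member, at 83.1, 90.4, 95.4 and 76.9 TPM in WT and at 121, 96.8, 103 and 103 TPM in PIM1+/- libraries. The groups did not overlap, but WT replicate 3 and PIM1+/- replicate 2 nearly met. Pcna rose by 0.29 ± 0.09 on the log2 scale (limma adjusted p = 0.0480), the smallest change among the called members, and the call was lost in 7 of the 8 fits without a library (adjusted p up to 0.114). Pola1, the catalytic subunit of the polymerase that starts each strand, had a log2 fold change of 0.13 ± 0.15 (limma adjusted p = 0.597). Prim1, the primase subunit that makes the RNA primer, had one of 0.15 ± 0.12 (limma adjusted p = 0.437).

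Deoxynucleotide supply also had 1 call among 3. Rrm2, the small subunit of ribonucleotide reductase, was at 10.1, 12.0, 13.8 and 8.02 TPM in WT and at 25.8, 17.8, 18.4 and 14.9 TPM in PIM1+/- libraries. The groups were separate and PIM1+/- replicate 1 was far above the rest. Rrm2 rose from 11.0 ± 2.48 to 19.2 ± 4.65 TPM (mean ± SD, n = 4), and its log2 fold change of 0.75 ± 0.19 was the largest of the 40 members (limma adjusted p = 0.0242), a call lost without WT replicate 1 (adjusted p = 0.0637) or WT replicate 4 (adjusted p = 0.0578). Rrm1, the large subunit of the same enzyme, was at 14.6 to 22.9 TPM in WT and 17.7 to 24.1 TPM in PIM1+/- libraries, with a log2 fold change of 0.17 ± 0.14 (limma adjusted p = 0.459). Tyms, thymidylate synthase, was at 26.5, 26.9, 29.2 and 25.5 TPM in WT and at 32.2, 28.1, 27.7 and 28.9 TPM in PIM1+/- libraries. Its groups overlapped through WT replicate 3, with a log2 fold change of 0.11 ± 0.07 (95% interval -0.05 to 0.26; limma adjusted p = 0.321).

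G1/S control, the cyclins, kinases and transcription factor that commit a cell to replication, had 0 of 6 members called by limma, 2 of them at an unadjusted p under 0.05, and a median log2 fold change of 0.24. Ccnd1, which encodes cyclin D1, the activator of Cdk4, was at 24.0, 28.9, 26.1 and 21.99 TPM in WT and at 34.5, 26.6, 31.8 and 35.2 TPM in PIM1+/- libraries. It overlapped through PIM1+/- replicate 2, the lowest of its group, and WT replicate 2, the highest of its own. The log2 fold change of Ccnd1 was 0.33 ± 0.11 (limma adjusted p = 0.0646), and it passed the threshold without WT replicate 2 (adjusted p = 0.0420) or PIM1+/- replicate 2 (adjusted p = 0.0296). Cdk4 was at 44.8, 49.4, 49.9 and 44.5 TPM in WT and at 59.6, 47.9, 51.2 and 59.6 TPM in PIM1+/- libraries. PIM1+/- replicates 1 and 4 were high and replicate 2 fell among the WT libraries, with a log2 fold change of 0.20 ± 0.08 (limma adjusted p = 0.128). The cyclins E, partners of Cdk2, had log2 fold changes of 0.27 ± 0.12 for Ccne1 (limma adjusted p = 0.167) and 0.42 ± 0.20 for Ccne2 (limma adjusted p = 0.177). Cdk2 itself, at -0.02 ± 0.14 (limma adjusted p = 0.927), was the only replication member with a negative value. E2f1, an activator of replication genes, was at 2.27 ± 0.305 TPM in WT and 2.46 ± 0.369 TPM in PIM1+/- libraries (mean ± SD, n = 4), with a log2 fold change of 0.08 ± 0.12 (limma adjusted p = 0.694).

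Mitotic cyclins and kinases had 0 of 8 members called by limma, none at an unadjusted p under 0.05, and a median log2 fold change of 0.25. Aurkb, the kinase of the chromosomal passenger complex, had the smallest p of these 8 and was at 15.1, 15.8, 18.7 and 12.2 TPM in WT and at 18.7, 16.6, 17.4 and 22.2 TPM in PIM1+/- libraries. WT replicate 3 lay among the PIM1+/- libraries, giving a log2 fold change of 0.27 ± 0.13 (95% interval -0.03 to 0.56; limma adjusted p = 0.194). Plk1, a kinase of mitotic entry and spindle assembly, was at 69.3, 62.8, 75.6 and 71.1 TPM in WT and at 70.3, 60.6, 65.3 and 69.8 TPM in PIM1+/- libraries. Its groups overlapped almost entirely, with a log2 fold change of -0.07 ± 0.07 (95% interval -0.23 to 0.10; limma adjusted p = 0.573). Exons of Plk1 overlap those of Gm44985 on the opposite strand, which was at 64.2 TPM on average, so the level of Plk1 is uncertain. Cdk1, the central mitotic kinase, was at 53.6 ± 15.1 TPM in WT and 62.1 ± 9.32 TPM in PIM1+/- libraries (mean ± SD, n = 4). WT libraries alone spanned 34.5 to 71.4 TPM for Cdk1, which held all 4 PIM1+/- values, and its log2 fold change was 0.24 ± 0.20 (limma adjusted p = 0.445). The mitotic cyclins Ccna2 (0.28 ± 0.14), Ccnb1 (0.28 ± 0.17) and Ccnb2 (0.20 ± 0.17), the spindle kinase Aurka (0.26 ± 0.16) and the checkpoint kinase Bub1 (0.17 ± 0.17) had positive log2 fold changes (± SE) that missed the threshold.

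Members that act on chromosomes and the spindle had 0 of 9 called by limma, none at an unadjusted p under 0.05, and a median log2 fold change of 0.12. Top2a, the topoisomerase that untangles sister chromatids, was at 36.5, 37.7, 52.4 and 36.4 TPM in WT and at 61.5, 41.4, 49.6 and 50.8 TPM in PIM1+/- libraries. WT replicate 3 was high among the WT libraries, above PIM1+/- replicates 2 to 4. The log2 fold change of Top2a was 0.32 ± 0.14 (95% interval -0.01 to 0.64; limma adjusted p = 0.161), and without WT replicate 3 it passed the threshold (adjusted p = 0.0455), the only mitosis member to do so when a library was left out. Mki67, whose protein Ki-67 coats mitotic chromosomes and is a common marker of cycling cells, was at 36.6, 32.9, 47.7 and 31.5 TPM in WT and at 44.7, 29.6, 37.4 and 34.8 TPM in PIM1+/- libraries. The highest value was a WT and the lowest a PIM1+/- library, giving a log2 fold change of -0.02 ± 0.15 (95% interval -0.35 to 0.32; limma adjusted p = 0.953), with a sign that turned when WT replicate 3 or PIM1+/- replicate 2 or 4 was left out. Cenpf, a kinetochore protein, had the lowest log2 fold change of the 40 members, -0.26 ± 0.12, from 5.68 ± 0.672 to 4.58 ± 0.692 TPM (mean ± SD, n = 4; limma adjusted p = 0.168). Cenpe, a kinetochore motor, had one of -0.03 ± 0.19 (limma adjusted p = 0.934). The anaphase activator Cdc20 (0.24 ± 0.13), the passenger complex subunit Birc5 (0.31 ± 0.19), the spindle motor Kif11 (0.12 ± 0.16) and the spindle proteins Tpx2 (0.22 ± 0.14) and Nusap1 (0.04 ± 0.17) had positive log2 fold changes (± SE) that missed the threshold. The 95% intervals of the 17 mitosis members reached up to 0.74, so changes as large as those of the called replication members were not resolved for all of them.

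**Figure D3:**
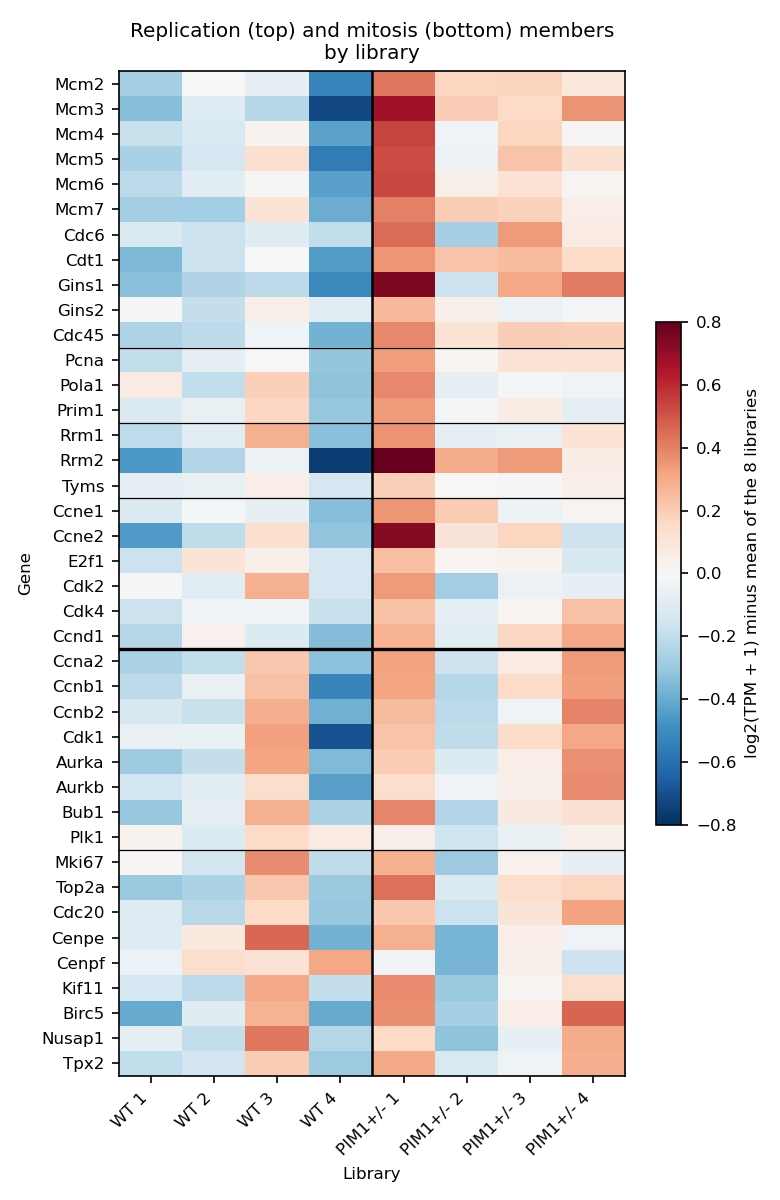
Log2(TPM + 1) of each member (rows, grouped by role, replication above the thick line and mitosis below it) minus its mean over the 8 libraries (columns), red for higher and blue for lower. PIM1+/- replicate 1 is the highest PIM1+/- library for 22 of 23 replication members, and WT replicate 3 the highest WT library for 16 of 17 mitosis members.

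Within a genotype the members moved together. Among WT libraries, replicate 3 was the highest for 16 of 17 mitosis and 18 of 23 replication members, and replicate 4 the lowest for 13 and 20 of them. Among PIM1+/- libraries, replicate 2 was the lowest for all 17 mitosis members, whereas replicate 4 was the highest for 9 and replicate 1 for 7. For the replication members, PIM1+/- replicate 1 was the highest for 22 of 23, and the lowest was replicate 2 for 11, replicate 4 for 8 and replicate 3 for 4. The same order was not counted over all tested genes, so whether it is particular to the members was not tested.

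Replication was set against mitosis in each library by the mean of log2(TPM + 1) over the members. The replication mean was 3.59, 3.68, 3.82 and 3.43 in WT and 4.22, 3.82, 3.91 and 3.87 in PIM1+/- libraries, so that WT replicate 3 met PIM1+/- replicate 2. The mitosis mean was 4.25, 4.29, 4.68 and 4.12 in WT and 4.67, 4.19, 4.46 and 4.63 in PIM1+/- libraries, and the groups overlapped widely. Replication minus mitosis was -0.66, -0.61, -0.86 and -0.69 in WT and -0.44, -0.38, -0.54 and -0.76 in PIM1+/- libraries. PIM1+/- replicates 1 to 3 lay above all WT libraries and replicate 4 lay among them, with means of -0.71 (SD 0.11, n = 4) and -0.53 (SD 0.17, n = 4). The difference between genotypes was 0.18, and it is given as a description without a test. In bulk RNA, fewer or more dividing cells and less or more RNA per dividing cell cannot be told apart.

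**Figure D4:**
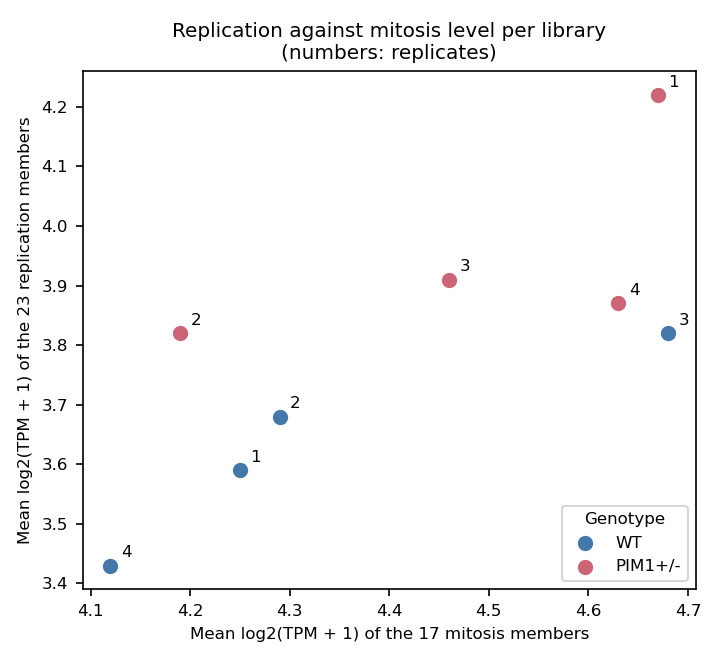
Mean log2(TPM + 1) of the 23 replication members (y axis) against that of the 17 mitosis members (x axis) in each library, numbered by replicate and coloured by genotype. WT replicate 3 has the highest mitosis mean of all libraries, at 4.68, and PIM1+/- replicate 1 the highest replication mean, at 4.22.

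The promoter motifs shown above were set beside these calls. Of the 7 called members with a window, 3 held an E2F-type octamer (42.9%), Mcm3, Mcm7 and Cdt1, as did 5 of the 11 replication members that were not called (45.5%), Cdc6, Cdk2, Mcm5, Mcm6 and Pola1. Among all genes called higher that had a window, 29 of 872 (3.33%) held the octamer, against 4.24% of all tested genes. Cdc45 and Mcm2 were the replication members with a CHR hexamer, and both were called higher, while the hexamer was in 12.2% of the windows of all genes called higher and 12.4% of those of all tested genes.

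Other genes of the same pathways were read from lists made by role, 145 of 146 listed genes being tested. Of these 8 were called higher and 2 lower, below the 8.93% and 8.54% of all tested genes, and the median log2 fold change was 0.11 against -0.01. Replication genes outside the members had 5 of 59 called higher, close to the share of all tested genes, and 1 lower, with a median of 0.15. Mitosis genes outside the members had 1 of 61 called higher and 0 lower, with a median of 0.08. Control genes were the cyclins, kinases, E2F and Rb family genes and kinase inhibitors of the G1/S step. They had 2 of 25 called higher, also close to the share of all tested genes, and 1 lower, with a median of 0.13.

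Cdc7, the kinase that activates the loaded Mcm ring, was at 4.73, 4.26, 4.59 and 3.81 TPM in WT and at 8.40, 6.37, 6.55 and 7.71 TPM in PIM1+/- libraries. The groups were well apart, and Cdc7 rose by 0.62 ± 0.11 on the log2 scale (limma adjusted p = 0.00571). Pola2, the accessory subunit of the polymerase that holds Pola1, was at 13.0, 12.3, 13.3 and 11.2 TPM in WT and at 19.7, 16.0, 17.6 and 18.7 TPM in PIM1+/- libraries. These groups did not overlap either, and Pola2 rose by 0.50 ± 0.08 on the log2 scale (limma adjusted p = 0.00514). Cdc7 and Pola2 were called without any single library, with smaller adjusted p than any member. Rfc5, a clamp loader subunit (0.33 ± 0.09, limma adjusted p = 0.0344), the ligase Lig1 (0.43 ± 0.12, limma adjusted p = 0.0370) and Uhrf1, which guides maintenance methylation behind the fork (0.46 ± 0.13, limma adjusted p = 0.0426), rose as well, and each lost its call in 6 of the 8 fits without a library. Clspn, a checkpoint mediator at the fork, had a log2 fold change of 0.40 (limma adjusted p = 0.147) and was the gene with the smallest p in its list without a call. Paics, an enzyme of purine synthesis, fell from 55.4 ± 4.14 to 41.7 ± 2.86 TPM (mean ± SD, n = 4), a log2 fold change of -0.40 ± 0.07 (limma adjusted p = 0.00630).

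Among control genes, Cdkn2b, an inhibitor of Cdk4 and Cdk6, was at 51.7, 46.5, 52.0 and 45.4 TPM in WT and at 29.9, 38.2, 37.3 and 36.2 TPM in PIM1+/- libraries. All PIM1+/- libraries lay below all WT libraries, with replicate 1 the lowest, and Cdkn2b fell by 0.46 on the log2 scale (SE 0.09; limma adjusted p = 0.00821). Cdc34, a ubiquitin-conjugating enzyme that acts with the SCF ligase in G1/S control, rose by 0.37 ± 0.07 on the log2 scale (limma adjusted p = 0.00771). Cdkn2b, Cdc34 and Paics kept their calls without any single library. E2f2, an activator E2F, rose by 0.45 ± 0.13 on the log2 scale (limma adjusted p = 0.0439), a call lost in 6 of the 8 fits. Outside replication and its control, Ncapg2, a condensin II subunit, was the single mitosis gene called, at 6.14, 4.85, 6.37 and 3.94 TPM in WT and 10.0, 7.03, 7.63 and 9.36 TPM in PIM1+/- libraries. It rose by 0.59 ± 0.15 on the log2 scale (limma adjusted p = 0.0295), a call lost in 4 of the 8 fits. Hjurp, the chaperone of the centromeric histone, had a log2 fold change of -0.27 (limma adjusted p = 0.0591), Mad2l1, a spindle checkpoint protein, 0.28 (limma adjusted p = 0.310), the kinesin Kif4 0.26 (limma adjusted p = 0.352), and Lin37, a subunit of the DREAM complex, -0.14 (limma adjusted p = 0.232). None of these 4 was called, each having the smallest p of its list. For Hjurp, however, all PIM1+/- libraries (56.9 to 66.1 TPM) lay below all WT libraries (69.8 to 89.8 TPM), and it was called lower with upper quartile scaling (-0.32, limma adjusted p = 0.0177) and after rescaling without mitochondrial transcripts (-0.33, limma adjusted p = 0.0279), the adjusted p ranging from 0.0177 to 0.433 over all alternatives.

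**Figure D5:**
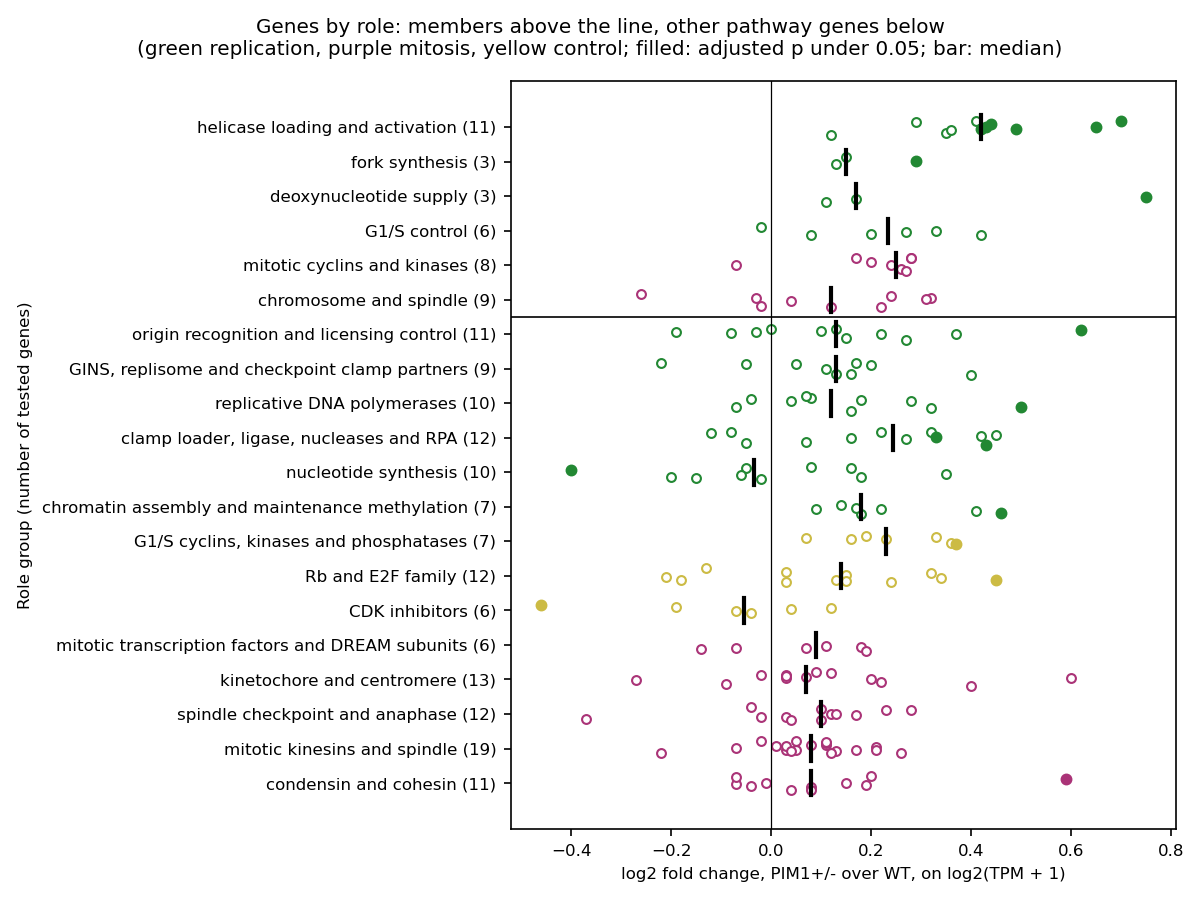
Log2 fold change (x axis, PIM1+/- over WT on log2(TPM + 1)) of each tested gene by role (y axis, with the number of genes), members above the line and other pathway genes below, green for replication, purple for mitosis and yellow for control, filled where the adjusted p was under 0.05, with a bar at the median. Of the 11 helicase members 6 are filled, and of the 61 mitosis genes outside the members 1 is, Ncapg2.

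Other measures moved with genotype beside these genes. Defining markers of epithelium were abundant, with Epcam at 1230 TPM in WT and 1280 TPM in PIM1+/- libraries on average. The keratins Krt8 (mean 4050 TPM in WT and 4810 TPM in PIM1+/- libraries) and Krt19 (3160 and 3640 TPM) led the list, of which 7 of 10 were higher and 1 lower, their sum being 10600 to 11700 TPM in WT and 12500 to 13400 TPM in PIM1+/- libraries. T, NK and intraepithelial lymphocyte markers were higher for 9 of 14 tested of 18 listed, and their sum was 17.1 to 33.6 TPM in WT and 75.8, 53.7, 107 and 123 TPM in PIM1+/- libraries, with Ccl5 (mean 7.19 TPM in WT and 32.4 TPM in PIM1+/- libraries) and Gzma (mean 2.20 and 11.4 TPM) the most abundant. Myeloid markers were higher for 3 of 4 tested of 14 listed (sum 26.0 to 33.1 TPM in WT and 48.6 to 62.2 TPM in PIM1+/- libraries, S100a9 at 0 in all), led by Cd14 (mean 26.1 TPM in WT and 37.9 TPM in PIM1+/- libraries) and Mcpt1 (mean 0.538 and 5.68 TPM). Cd14 made up most of the myeloid sum, and the myeloid markers not tested reached 1 TPM in fewer than 4 libraries. B and plasma cell markers had 0 of 2 tested called (4.28 to 14.5 TPM against 8.28 to 13.5 TPM, mostly Igkc and Igha), and stromal and endothelial markers 0 of 1 (4.03 to 5.45 TPM against 3.03 to 4.51 TPM, led by Vwf and Pecam1, with Lum at 0 in all). Interferon-stimulated genes, led by Isg15 and Irf7, were higher for 12 of 12, with a median log2 fold change of 3.07. Absorptive colonocyte markers, led by Car1 and Guca2a, had 4 of 12 higher and 2 lower, and goblet cell markers, led by Muc2 and Spink4, 4 of 8 higher and 2 lower. Markers of crypt base stem cells and of Wnt signalling had 2 of 11 higher, Cd44 and Prom1, and 2 lower, Rgmb and Sox9, while Myc was at 25.7 TPM in WT and 24.2 TPM in PIM1+/- libraries on average, and their sum was 218 to 228 TPM in WT and 248 to 280 TPM in PIM1+/- libraries. Prom1 made up much of that sum (mean 86.4 TPM in WT and 129 TPM in PIM1+/- libraries), whereas 7 of the 11 log2 fold changes were negative and their median was -0.18. Lgr5, the defining stem cell marker, was at 2.98 TPM in WT and 2.27 TPM in PIM1+/- libraries on average (log2 fold change -0.28; limma adjusted p = 0.217). In PIM1+/- replicate 1, which had the highest replication mean, the interferon-stimulated (1670 TPM), goblet cell (30600 TPM) and crypt base (280 TPM) sums were also the highest of the 8 libraries. The crypt base genes did not move alike there. Prom1 (146 TPM), Cd44 (29.1 TPM) and Olfm4 (0.52 TPM) were at their highest in that library. Lgr5 (1.89 TPM), Ascl2 (2.47 TPM) and Rgmb (12.6 TPM) were at their lowest. The lymphocyte and myeloid sums were highest in PIM1+/- replicate 4, the absorptive sum in PIM1+/- replicate 3 and the pan-epithelial sum in PIM1+/- replicate 2. The part of these cell types in the replication calls was not tested.

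Posterior Hox genes, which are most active at the distal end of the large bowel, were lower for 4 of 6 tested of 9 listed, among them Hoxb13 (mean 118 TPM in WT and 50.3 TPM in PIM1+/- libraries) and Hoxa10 (mean 32.9 and 19.7 TPM), and their sum was 199, 178, 232 and 189 TPM in WT and 54.1, 104, 107 and 122 TPM in PIM1+/- libraries. PIM1+/- replicate 1, with the highest replication mean, had the lowest sum. With a score of these 6 genes as a covariate, 0 of 23 replication members were called by limma, 3 had an unadjusted p under 0.05, and the smallest adjusted p of a member was 0.199. Calls were few over all 12760 tested genes in that fit, 243 (168 higher and 75 lower), against 2229 without the covariate. The median log2 fold change was then 0.15 for replication and 0.26 for mitosis members, the reverse of their order without the covariate (0.33 and 0.22). Of the replication members 19 of 23 were then positive, against 22 of 23 without it. The score had a correlation of -0.733 with genotype over the 8 libraries, and the part of the sampled stretch of colon in the replication calls cannot be told apart from that of genotype.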

How the data were processed

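TRIzol-extracted total RNA was sequenced on an Illumina NovaSeq, per the labels and the design text. The authors deposited 1 table of TPM per gene, which the design text says RSEM quantified. HISAT2, StringTie and edgeR (without versions) and the build GRCm38.p6 are named in the submitters' processing notes. Neither the strand setting nor the read depth is given in the sources used here. Exons of 11 members overlap those of a detected gene on the opposite strand in GENCODE M21 (among the called ones Mcm7 and Cdc45, and of the others Plk1, Cdk4, Ccnd1 and Gins2), so reads of the pair may not be told apart. No per-sample column was left out (0). Columns were matched to samples by genotype and replicate number.

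Log2(TPM + 1) was fitted with limma 3.58.1 in R 4.3.3 (genotype as the term, moderated variances with a mean-variance trend, Benjamini-Hochberg adjustment, threshold 0.05). The test was checked on simulated data with independent noise for each gene, which does not cover genes that move together within a library. Figures were drawn with matplotlib 3.10.9. Values in every library are given for called members, for those with the smallest p or the highest mean in each role group, and for Mki67, Pcna, Top2a, Ccnd1 and the Mcm subunits. Cdk1, Cdc6, Cenpf, E2f1 and the others are given by range, mean or fold change. Of each pathway list, up to 4 called genes, or else the one with the smallest p, are named, and of each marker list the genes with the highest mean, besides Epcam, Lgr5 and called or undetected markers chosen after their values were seen. The members and lists were chosen with earlier results of these data known. Promoter windows and sequences came from RefSeq on GRCm38.p6, and where Mcm7 had several windows the first was used. Whether the replicate numbers pair the samples is not labelled, and the main fit treated the libraries as unpaired. Correlations of the deviations of same-numbered libraries were -0.136, 0.0320, -0.0332 and -0.0710. Such values cannot show that no pairing exists, since a pairing may have a small effect on RNA levels. Other settings tried were upper quartile scaling, rescaling without mitochondrial transcripts, limma with no trend, a pseudocount of 0.1, no filter, a filter at a mean of 5 TPM, thresholds of 0.1 and 0.01, the replicate number as a block, the posterior Hox score as a covariate, and leaving out each library.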

Additional observations from a re-analysis of the deposited data

Results flagged for a closer look

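Among the 40 members, 80 groups of 4 libraries were searched for a library that stands apart by Dixon's criterion at 95%, which chance meets in about 1 in 20 groups, and 3 were found. Pola1 was at 4.70 TPM in PIM1+/- replicate 1, against 3.15 to 3.33 TPM in the other PIM1+/- libraries. Top2a was at 52.4 TPM in WT replicate 3, against 36.4 to 37.7 TPM in the other WT libraries. Kif11 was at 13.2 TPM in WT replicate 3, against 8.95 to 9.40 TPM in the other WT libraries.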

How the results depend on the processing

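The same 8 replication members were called with upper quartile scaling, a mean of at least 5 TPM (18 of 23 replication members tested) and a pseudocount of 0.1. The count of replication members called higher was 5 without the mean-variance trend and 5 after rescaling without mitochondrial transcripts, 3 with no filter on low values, 0 at an adjusted p under 0.01, and 0 with the posterior Hox covariate. With that covariate the median of the replication members was 0.15 and lay below that of the mitosis members, the reverse of the main fit. With the replicate number as a block 3 were called, Cdt1, Mcm3 and Rrm2, and 689 genes were called lower. Other pathway genes called higher numbered 4 after rescaling, 3 with no filter, 13 at an adjusted p under 0.1, 3 at one under 0.01, 5 with the block and 0 with the Hox covariate (0 lower, 8 at an unadjusted p under 0.05). All genes called lower numbered 666 with no filter, 471 were called higher and 365 lower at an adjusted p under 0.01, and 168 and 75 with the Hox covariate. Leaving out each library in turn gave 746 to 1004 genes higher and 616 to 1054 lower, 2 to 6 replication members and 0 to 1 mitosis members higher, and 3 to 9 other pathway genes higher. The sign of Mki67 turned without WT replicate 3 (0.11), PIM1+/- replicate 2 (0.08) or PIM1+/- replicate 4 (0.00), within a range of -0.12 to 0.11. The number of positive mitosis members ran from 12 to 15 of 17 over the settings. The cause of these changes was not tested. Hjurp, a mitosis gene outside the members, was called lower with upper quartile scaling and after rescaling without mitochondrial transcripts.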
